A study of Mus musculus with 12 samples.

Results

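Svs1, Svs2, Svs3a, Svs3b, Svs4, Svs5, Svs6 and Ceacam10 encode secreted proteins of the seminal vesicle, and their RNA was measured here in sorted cells of the mouse prostate. The 8 genes were taken by their symbols from the 24054 genes of the deposited tables, and all 8 passed the filter on low counts that left 14201 genes for testing. Epithelial cells of the basal and the luminal layer were sorted out of prostates from C57BL/6 mice, with no transgene or treatment named in the labels. The 4 groups were basal cells at 3 months, basal cells at 24 months, luminal cells at 3 months and luminal cells at 24 months. Each group had 3 libraries, and each library pooled the cells of 2 mice of equal age, so that the spread between libraries is the spread between pools and single animals cannot be seen.

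The seminal vesicle is a gland beside the prostate that opens into the same duct system and supplies most of the fluid of the ejaculate. Its androgen-dependent epithelium secretes a few very abundant proteins, and the prostate's transglutaminase cross-links several of them into the copulatory plug. Svs2 is a main clotting substrate of the semenogelin type that also binds sperm, Svs3a and Svs3b are further plug proteins, Svs4, Svs5 and Svs6 are small secreted proteins, and Svs1 is a protein of the copper amine oxidase type. Ceacam10 is a secreted member of the carcinoembryonic antigen family that is found in seminal plasma.

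The 6 members Svs2, Svs3b, Svs4, Svs3a, Svs6 and Svs5 lie together on chromosome 2, between 164235929 and 164334394 in GRCm38.p6 (the mm10 assembly), a span of 98.5 kb that holds 6 RefSeq genes, all of them members. All 8 are annotated as protein-coding. Svs1 lies on chromosome 6 (48986861 to 48991725, plus strand) and Ceacam10 on chromosome 7 (24777167 to 24784656, plus strand). Svs3a and Svs3b were close copies: of the windows of 50 bases in their transcripts, 41.2% of those of Svs3a and 39.3% of those of Svs3b occurred in the other, and no other pair of members shared such a window. The division of reads between Svs3a and Svs3b is therefore uncertain, and their sum was tested as well.

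RefSeq promoter windows, from 250 bases before the annotated start to 50 bases after it, are shown for the 2 pairs of near-identical promoters and for Ceacam10, which lies outside the cluster. The pairs were chosen because Svs5 lay far above Svs6 in TPM, while Svs3a and Svs3b lay nearer to each other. Since the division of reads between Svs3a and Svs3b is uncertain, their levels cannot be called alike. The Svs3a window is chr2:164289017-164289316 on the plus strand and the Svs3b window is chr2:164256594-164256893 on the minus strand. The Svs5 window is chr2:164332515-164332814 and the Svs6 window chr2:164316501-164316800, both on the plus strand, and the Ceacam10 window is chr7:24776917-24777216 on the plus strand. In the pairs, capitals mark the bases that differ between both windows of a pair, and in Ceacam10 they mark the hexamer AGAACA or its reverse complement.
Svs3a: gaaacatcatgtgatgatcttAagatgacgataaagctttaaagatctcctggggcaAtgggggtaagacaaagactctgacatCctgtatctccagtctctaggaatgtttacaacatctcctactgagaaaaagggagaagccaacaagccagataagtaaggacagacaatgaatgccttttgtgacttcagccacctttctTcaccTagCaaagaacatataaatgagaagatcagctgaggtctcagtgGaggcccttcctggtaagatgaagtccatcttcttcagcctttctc
Svs3b: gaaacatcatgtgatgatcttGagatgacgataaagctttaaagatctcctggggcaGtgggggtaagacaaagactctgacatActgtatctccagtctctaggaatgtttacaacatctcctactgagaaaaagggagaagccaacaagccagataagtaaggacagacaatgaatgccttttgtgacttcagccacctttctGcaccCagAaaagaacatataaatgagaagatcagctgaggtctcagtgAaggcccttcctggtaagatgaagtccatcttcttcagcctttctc
Svs5: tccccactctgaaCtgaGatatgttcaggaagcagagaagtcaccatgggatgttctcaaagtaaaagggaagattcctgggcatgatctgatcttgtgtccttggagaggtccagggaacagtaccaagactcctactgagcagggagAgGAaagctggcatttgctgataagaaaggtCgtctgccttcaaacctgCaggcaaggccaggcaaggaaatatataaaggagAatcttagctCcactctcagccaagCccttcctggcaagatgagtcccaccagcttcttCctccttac
Svs6: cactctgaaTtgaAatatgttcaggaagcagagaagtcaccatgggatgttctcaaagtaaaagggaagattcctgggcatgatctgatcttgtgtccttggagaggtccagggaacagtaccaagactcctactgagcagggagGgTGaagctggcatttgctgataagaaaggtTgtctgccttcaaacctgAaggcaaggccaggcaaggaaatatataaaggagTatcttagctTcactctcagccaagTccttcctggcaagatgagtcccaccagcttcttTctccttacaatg
Ceacam10: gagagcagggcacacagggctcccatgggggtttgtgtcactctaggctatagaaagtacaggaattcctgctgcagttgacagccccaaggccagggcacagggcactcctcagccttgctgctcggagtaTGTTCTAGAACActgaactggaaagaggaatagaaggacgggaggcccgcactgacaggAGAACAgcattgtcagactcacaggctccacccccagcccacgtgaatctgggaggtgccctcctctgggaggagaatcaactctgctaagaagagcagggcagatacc

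The Svs3a and Svs3b windows were identical at 293 of 300 aligned bases (97.7%), and the Svs5 and Svs6 windows at 285 of 296 (96.3%). Other pairs of members that aligned over at least 200 bases reached at most 73.2%, the value for Svs2 and Svs3a. The letters TATAAA, the core of a TATA box, began on the sense strand between 40 and 11 bases before the start in 5 of the 8 members (Svs3a, Svs3b, Svs4, Svs5 and Svs6), against 2.3% of 27025 RefSeq promoters. The RefSeq start of Svs2 and that of GENCODE differ by 125 bases and those of Svs4 by 152, against 0 to 39 for the others, so their windows depend on the annotation. The hexamer AGAACA, which is 1 arm of an androgen response element, occurred on either strand in 6 of the 8 windows against 19% of all promoters. Both near-identical pairs are among the members counted for TATAAA and for AGAACA, so these counts are not of independent windows. The full element, which is AGAACA, any 3 bases and TGTTCT, occurred in 0 of the 8. It occurred in 1 of the 27025 promoters (0.0037%), so its absence does not set the members apart. These matches describe the letters of the windows and nothing was measured on the binding of a factor.

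Library totals lay at 20012668 to 27663428 reads, and 16 to 73 reads were estimated to stand for 1 distinct fragment, so low counts rest on few molecules. Basal and luminal markers matched the labels: at both ages, luminal cells had all 5 basal markers called lower and all 6 luminal markers called higher. Replicate 2 of the 24-month groups stood apart for the members, in luminal cells and, at a far lower level, in basal cells. In luminal cells at 24 months, replicate 2 had 9 genes at 10 or more times the level of the highest of the other 5 luminal libraries, and 5 of the 9 were members. Each other luminal library had 1 or 2 such genes and no member among them. In basal cells at 24 months, replicate 2 had 5 such genes, with Svs3a and Svs3b among them, on reference levels of less than 3 fragments. The other 5 basal libraries had 0 to 4 such genes and no member among them.

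Svs2 and Svs5 were among the 3 most abundant genes in every luminal library, by TPM, a level scaled for gene length and to the same total in every library. The TPM of Svs2 was 114226, 102761 and 116303 in the 3 luminal libraries at 3 months and 106789, 92284 and 113464 at 24 months. In basal cells the level of Svs2 was 1558, 1320 and 1613 TPM at 3 months and 667, 574 and 1699 TPM at 24 months. The luminal and basal libraries did not overlap, and the lowest basal values were those of replicates 1 and 2 at 24 months. The TPM of Svs5 was 117175, 102693 and 122734 in luminal cells at 3 months and 100378, 185625 and 129178 at 24 months. Its basal level was 1685, 1265 and 1971 TPM at 3 months and 651, 1376 and 2169 TPM at 24 months. Svs5 was near Svs2 in 5 of the 6 luminal libraries, with a ratio of TPM between 0.94 and 1.14, and was 2.01 times Svs2 in replicate 2 at 24 months.

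Svs4 had the third highest TPM of the 8 genes in 11 of the 12 libraries, and in replicate 2 of the basal cells at 24 months it lay above Svs2. Its luminal level was 6970, 2677 and 5771 TPM at 3 months and 5719, 63696 and 12182 TPM at 24 months. In basal cells Svs4 was at 72.9, 88.9 and 69.5 TPM at 3 months and 23.3, 828 and 208 TPM at 24 months. Replicate 2 was the highest of the 24-month libraries in both cell types, and the other luminal libraries of both ages lay between 2677 and 12182 TPM.

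The remaining 5 genes were low and uneven in luminal cells. Svs6 was at 182, 27.8 and 270 TPM in luminal cells at 3 months and at 355, 9245 and 242 TPM at 24 months. The promoter windows of Svs5 and Svs6 were the near-identical pair shown above, yet the TPM of Svs5 was 283 to 3690 times that of Svs6 in 5 luminal libraries and 20.1 times in replicate 2 at 24 months. Svs3a was at 24.3, 0.49 and 60.4 TPM in luminal cells at 3 months and at 227, 4903 and 169 TPM at 24 months. Svs3b was at 45.9, 3.88 and 99.3 TPM at 3 months and at 158, 3922 and 272 TPM at 24 months. Svs3a and Svs3b, with the other near-identical pair of promoters, had the same lowest and highest luminal library, but so did Svs1, Svs6 and Ceacam10. The division of reads between Svs3a and Svs3b is uncertain, and a link between promoters and levels was not tested. Svs1 was at 19, 7.06 and 37.5 TPM in luminal cells at 3 months and at 165, 3554 and 25.6 TPM at 24 months. Ceacam10 was at 34.7, 12.5 and 71.6 TPM at 3 months and at 249, 5184 and 381 TPM at 24 months. For all 5 genes the lowest luminal library was replicate 2 at 3 months and the highest was replicate 2 at 24 months.

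**Figure D1:**
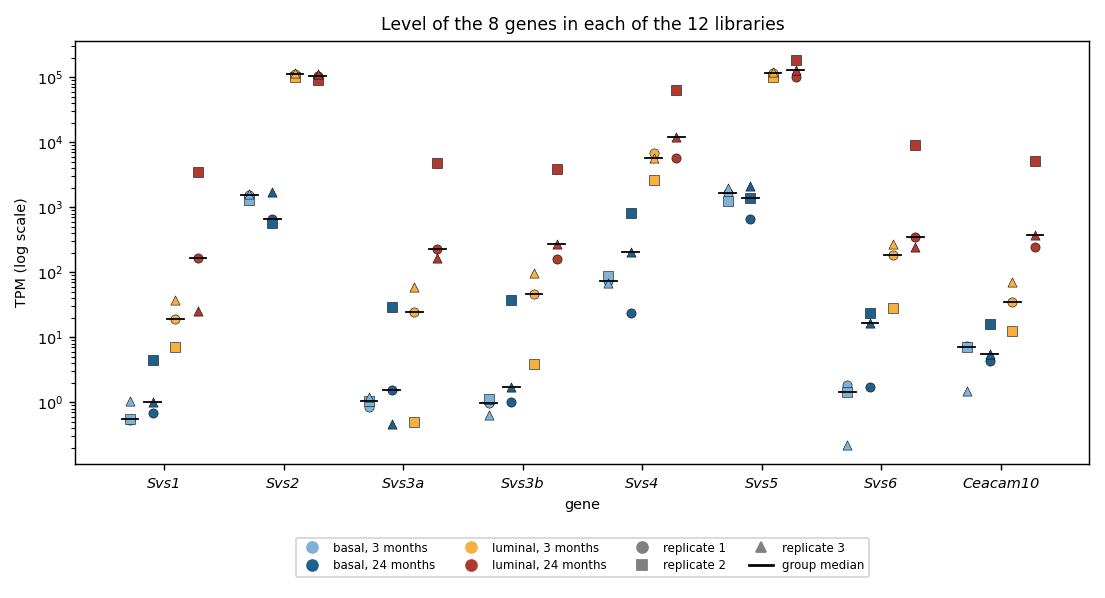
TPM of the 8 genes (log scale) in each of the 12 libraries, with colours for the groups, symbols for the replicate number and a bar at the group median. Svs2 and Svs5 lie between 92284 and 185625 TPM in all luminal libraries, while the square of the 24-month luminal group lies far above the others for Svs1, Svs3a, Svs3b, Svs6 and Ceacam10.

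In basal cells these 5 genes were near the limit of detection. At 3 months their basal levels ran from 0.22 to 7.26 TPM, and Svs3a, Svs3b and Svs6 had less than 1 distinct fragment in each of the 3 libraries. At 24 months they ran from 0.46 to 36.99 TPM, and replicate 2 held the highest value of each of the 5. The highest of these, 36.99 TPM for Svs3b, rested on an estimated 15.3 fragments.

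Together the 8 genes took 23.1% ± 1.98 (SD, n = 3) of all TPM in luminal cells at 3 months and 27.9% ± 7.98 (SD, n = 3) at 24 months. The single luminal values were 23.9, 20.8 and 24.5% at 3 months and 21.4, 36.8 and 25.6% at 24 months. TPM has a fixed total, so a fall in other abundant genes raises this share. The summed list of prostate secretory genes took fewer TPM in old than in young luminal cells. Its part in the rise of the members' mean luminal share was not tested. In basal cells the share was 0.322% ± 0.0495 (SD, n = 3) at 3 months and 0.278% ± 0.138 (SD, n = 3) at 24 months. Svs2 and Svs5 made up 94.8 to 98.7% of the summed TPM in 5 luminal libraries and 75.4% in replicate 2 at 24 months. In basal cells they made up 94.3 to 98.0% in 5 libraries and 67.5% in replicate 2 at 24 months. The part of Svs2 and Svs5 together was therefore alike in both cell types, apart from the libraries numbered 2 at 24 months. In those 2 libraries Svs4 and the minor members took more. The other 6 members took 9.05% of all TPM in the luminal one of them and 0.273 to 1.33% in the other 5 luminal libraries. The minor members rested on few fragments in basal cells, so their single parts are not compared between cell types.

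**Figure D2:**
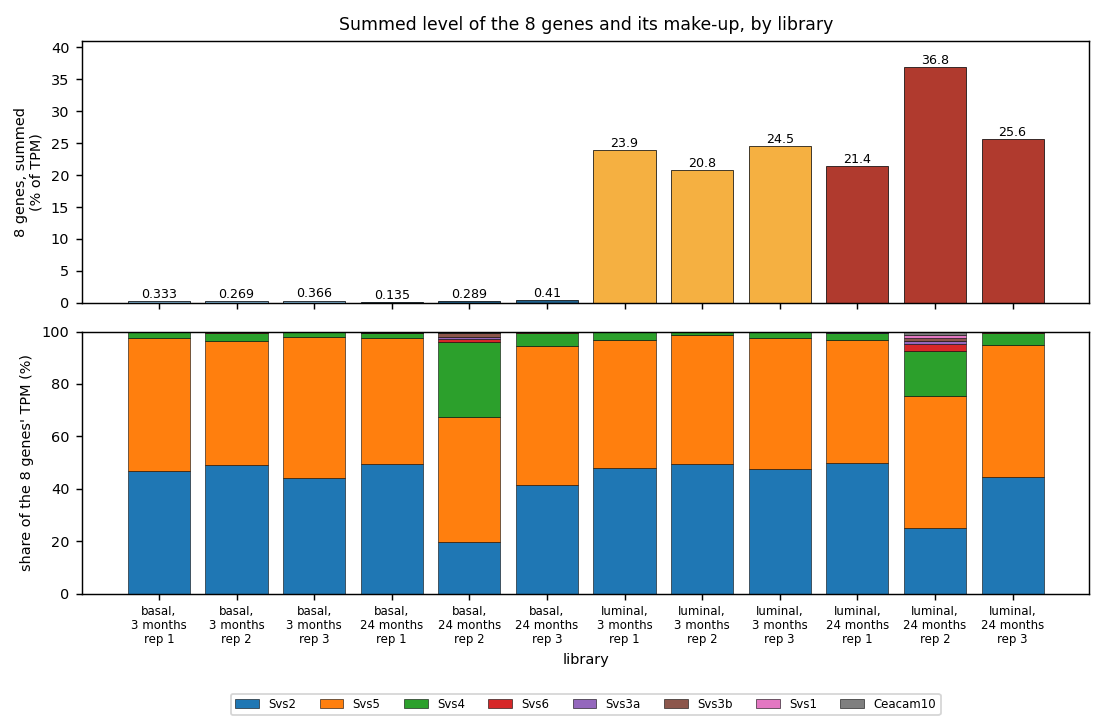
Upper panel: summed TPM of the 8 genes as a percent of all TPM in each library. Lower panel: share of each gene in that sum. Bars are single libraries, coloured by group above and by gene below, and replicate 2 of both 24-month groups shows the smallest part of Svs2 and the largest of Svs4.

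Luminal and basal cells were compared at each age with edgeR's quasi-likelihood test on counts, and a gene was called at a Benjamini-Hochberg adjusted p under 0.05. At 3 months all 8 members were called higher in luminal cells, where 19% of all tested genes were called higher. The groups did not overlap in normalized CPM, which are counts scaled to a common library total, for 7 members, against 28.5% of all tested genes, and the exception was Svs3a. Svs2 had a log2 fold change of 6.71 ± 0.35 (SE, edgeR adjusted p = 2.02e-09), and Svs5 one of 6.62 ± 0.42 (edgeR adjusted p = 1.48e-08). Svs4 had a log2 fold change of 6.55 ± 1.17 (SE, edgeR adjusted p = 0.000398) and Ceacam10 one of 3.37 ± 1.1 (edgeR adjusted p = 0.0252). The sorted cells were measured in bulk, so fewer expressing cells and less RNA per cell cannot be told apart.

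For the other 4 members the basal mean at 3 months lay under 2.27 CPM, the level that 3 fragments over the group would give. Counting these 3 fragments as the basal level, Svs3a was at least 9.64-fold, Svs3b at least 17.7-fold and Svs6 at least 20.7-fold higher in luminal cells. Without replicate 3 of the luminal cells at 3 months these bounds were 4.25-fold, 8.92-fold and 13.7-fold. Svs1 had 40.2 CPM in luminal and 0.959 CPM in basal cells, and no fold is given for it. The members' median log2 fold change was 6.39, or 4.26 with these 4 genes at that limit, and the median over all tested genes was 0.19. With reads converted to distinct fragments, 3 of the 8 members (Svs2, Svs4 and Svs5) were called at 3 months by edgeR, where 5988 of 11201 tested genes were called. DESeq2 called 6 and gave no p for Svs3a and Svs6, and limma on log2(TPM + 1) also called 6. Of all 14201 genes, DESeq2 called 6347 and limma 6281. Svs3a was lost without any 1 of the 3 young basal libraries or replicate 1 or 3 of the young luminal ones (edgeR adjusted p = 0.0508 to 0.124), and Ceacam10 without basal replicate 2 or 3 or luminal replicate 3 at 3 months (edgeR adjusted p = 0.0504 to 0.0988).

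At 24 months all 8 members were again called higher in luminal cells, where 15.7% of all tested genes were called higher. No member's groups overlapped, against 25.2% of all tested genes whose luminal libraries all lay above the basal ones. The log2 fold change was 6.94 ± 0.36 (SE) for Svs2, 6.89 ± 0.43 for Svs5 and 6.63 ± 1.17 for Svs4, with edgeR adjusted p = 2.34e-09, 1.53e-08 and 0.000377. It was 9.62 ± 1.67 for Svs1, 8.26 ± 1.52 for Svs6 and 8.19 ± 1.29 for Ceacam10, with edgeR adjusted p = 0.000322, 0.000538 and 0.000142. For Svs3a and Svs3b it was 7.76 ± 1.78 and 7.16 ± 1.61, with edgeR adjusted p = 0.00292 and 0.00262, and for the sum of both genes it was 7.46 ± 1.71 with edgeR adjusted p = 0.00291. Without both 24-month libraries numbered 2, all 8 members were still called by edgeR, with log2 values of 6.91 for Svs1, 5.15 for Svs6 and 6.12 for Ceacam10. The size of the difference moved with each of these libraries. Without luminal replicate 2 alone, the members' median log2 fold change was 5.12 in place of 7.46, with 4.4 for Svs3a, 4.21 for Svs3b and 5.7 for Svs1. Without basal replicate 2 alone the median was 8.98, with 11.14 for Svs3a, 10.48 for Svs3b and 10.95 for Svs1. The basal libraries at 24 months other than replicate 2 held at most 1.38, 1.41 and 1.94 fragments of these genes. The size of their differences in fits without that library therefore cannot be read.

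The basal level of the abundant members was a small fraction of the luminal one. Across libraries of the same age and number, the basal TPM of Svs2 was 1.28 to 1.39% of the luminal TPM at 3 months and 0.622 to 1.5% at 24 months. The same share was 0.648 to 1.68% for Svs5 and 0.651 to 2.12% for Pate4, another seminal vesicle secretory protein, over all 6 pairs of libraries. For the summed list of prostate secretory genes it was 1.03 to 4.58%. The part of RNA carried over from luminal cells, or free in the suspension, in these basal levels was not tested. The numbers only name libraries here, since the labels do not say that libraries of the same number came from the same mice.

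In the fit over all 12 libraries, age in luminal cells was the comparison in which the members differed most among themselves. Without replicate 2 of the luminal cells at 24 months this no longer held. Their log2 values then ran from -0.18 to 2.83, against -0.49 to 3.97 for age in basal cells. At 24 against 3 months, 2 of the 8 members were called higher by edgeR and 0 lower, where 1.26% of all tested genes were called higher and 0.394% lower. Ceacam10 had a log2 fold change of 5.68 ± 1.14 (SE, edgeR adjusted p = 0.0202) and its groups did not overlap. Svs1 had a log2 fold change of 5.96 ± 1.4 (SE, edgeR adjusted p = 0.0481), and replicate 3 at 24 months lay within the range of the 3-month libraries. The fitted values rest on a spread of 5.34-fold between the 3-month and 165-fold between the 24-month luminal libraries for Svs1.

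The remaining members were not called. Svs3a had a log2 difference of 6.03 ± 1.63 (SE, edgeR adjusted p = 0.0924), Svs3b 4.93 ± 1.45 (edgeR adjusted p = 0.127) and Svs6 4.43 ± 1.25 (edgeR adjusted p = 0.11). The sum of Svs3a and Svs3b had a log2 difference of 5.42 ± 1.55 (SE, edgeR adjusted p = 0.113). Svs4 had 2.44 ± 0.96 (edgeR adjusted p = 0.337), Svs5 0.23 ± 0.33 (edgeR adjusted p = 0.998) and Svs2 -0.18 ± 0.27 (edgeR adjusted p = 1). In normalized CPM the luminal libraries at 24 months all lay above those at 3 months for Svs3a, Svs3b and Ceacam10, against 8.71% of all tested genes. They all lay below for Svs2, against 9.6% of all tested genes, but only just, with 105510 and 105515 CPM as the nearest values, and in TPM the groups overlapped.

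These differences rested largely on 1 library. Without replicate 2 of the luminal cells at 24 months, edgeR called 0 of the 8 members, and the members' median log2 fold change was 1.34 in place of 4.68. Ceacam10 then had a log2 difference of 2.83 ± 0.69 (SE, edgeR adjusted p = 0.0839) and Svs1 one of 1.99 ± 0.79 (edgeR adjusted p = 0.426). Leaving out any 1 of the 3 young luminal libraries also left 0 members called by edgeR. Leaving out replicate 3 of the old ones gave 4 (Svs1, Svs3a, Svs6 and Ceacam10), where 331 of 14817 tested genes were called. Svs1 alone was also lost without any of the 3 young basal libraries or without replicate 1 or 3 of the old basal ones, at edgeR adjusted p = 0.0544 to 0.062. For Svs3a, Svs3b and Ceacam10, the other 2 luminal libraries at 24 months still lay above all 3 at 3 months. With reads converted to fragments, edgeR called 6 members, all but Svs2 and Svs5. That fit called 550 of 11201 tested genes, against 235 of 14201 in the main fit.

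**Figure D3:**
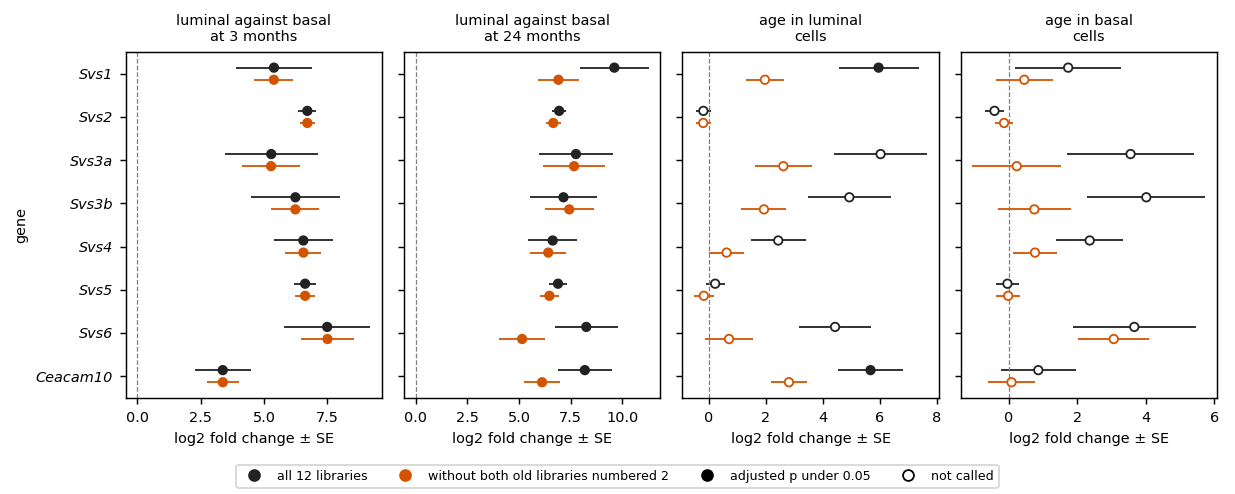
Log2 fold change with its standard error (edgeR) for each gene in 4 comparisons, in black over all 12 libraries and in orange without both 24-month libraries numbered 2, with filled points for an adjusted p under 0.05. The luminal against basal differences are filled in both fits, and in the age comparisons the orange points lie nearer to 0 for Svs1, Svs3a, Svs3b, Svs4, Svs6 and Ceacam10. Fitted values of Svs1, Svs3a, Svs3b and Svs6 against basal cells at 3 months depend on few or no fragments there. At 24 months the orange values of Svs1, Svs3a and Svs3b against basal cells also depend on few fragments.

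In that library, the level of Svs6 in normalized CPM was 32 times, Svs3a 26.5 times, Svs1 26.4 times, Svs3b 17.1 times and Ceacam10 16.1 times that of the highest of the other 5 luminal libraries. Svs4 was 6.2 times, Svs5 1.62 times and Svs2 0.849 times the highest other value, so the least abundant members in the other libraries had the largest excess and the most abundant one had none. Sva, which encodes the sperm-binding seminal vesicle autoantigen, was 33.6 times and Spinkl, a Kazal-type inhibitor gene of the same gland, 3.87 times the highest of the others. Pate4 was inside the luminal range, at 9428 TPM among values from 8983 to 15600 TPM. Pax2, a transcription factor of the Wolffian duct from which the seminal vesicle derives, was at 7.38 TPM among 5.32 to 15.97 TPM. Sva and Spinkl belong to a list of other seminal vesicle secretory genes with 9 tested genes. Of these 9, 2 had their lowest and 3 their highest luminal level in this library, in normalized CPM. Of the 17 tested prostate secretory genes, 6 had their lowest and 3 their highest luminal level there. The part of seminal vesicle cells or RNA in the levels of the members was not tested.

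**Figure D4:**
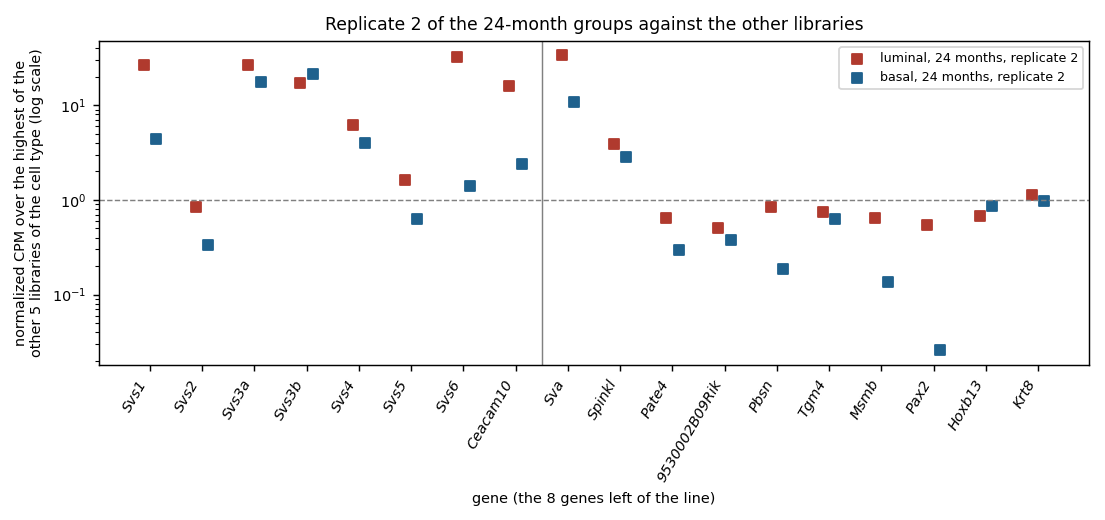
Level (normalized CPM, log scale) of each gene in replicate 2 of the 24-month groups, divided by the highest of the other 5 libraries of the same cell type, with 1 at the dashed line. In the luminal library the genes Svs6, Svs3a, Svs1, Svs3b and Ceacam10 lie at 16.1 to 32 and Svs2 at 0.849, while Pate4, Pbsn and the other secretory genes drawn to the right of Spinkl, Pax2 and Hoxb13 lie under 1. The basal points of Svs1, Svs3a, Svs3b, Svs6, Ceacam10 and Sva rest on few fragments.

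In basal cells no member was called between 24 and 3 months by edgeR, where 1.24% of all tested genes were called in either direction. The smallest unadjusted edgeR p among the members were 0.0297 for Svs4 and 0.0355 for Svs3b, and DESeq2 and limma also called 0 after adjustment. Svs4 had a log2 difference of 2.36 ± 0.98 (SE, edgeR adjusted p = 0.287) and Svs2 one of -0.42 ± 0.27 (edgeR adjusted p = 0.533). The members' median log2 difference was 2.05, or 0.69 with the 4 genes under the detection limit at 3 months set to that limit, and the median over all tested genes was 0.09. Without replicate 2 of the basal cells at 24 months the members' median was 0.26, with 0.68 for Svs4, 0.66 for Svs3b and 0.15 for Svs3a. Svs6 stayed at 2.97, on at most 4.94 fragments in any basal library. The values of Svs3a, Svs3b and Svs6 rest on few or no fragments. Without replicate 3 at 24 months Svs2 was called lower, with a log2 fold change of -1.06 ± 0.1 (SE, edgeR adjusted p = 0.00044), and its 2 remaining libraries were at 667 and 574 TPM.

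The basal library numbered 2 at 24 months shared part of the luminal pattern. Svs3b rested there on an estimated 15.3 fragments and Svs3a on 11.8, against at most 1.41 and 1.38 in any other basal library, so the size of these ratios cannot be read. Svs4, the member with more fragments, was at 3.96 times the highest of the other 5 basal libraries in normalized CPM, while Svs5 was at 0.63 and Svs2 at 0.336 times. Svs1, Svs6 and Ceacam10 had 4.37, 3.55 and 5.4 fragments in this library and at most 1.94, 4.94 and 3.71 in the others, and no ratio is given for them.

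The difference between the age responses of luminal and basal cells was tested as an interaction. No member was called by edgeR, where 0.817% of all tested genes were called in either direction. The member with the smallest p was Ceacam10, with a log2 difference of 4.82 ± 1.5 (SE, edgeR adjusted p = 0.201). Without luminal replicate 2 at 24 months the value for Ceacam10 was 2.02 (edgeR adjusted p = 0.479), and without basal replicate 2 it was 5.74. DESeq2 called Ceacam10 (log2 4.91, adjusted p = 0.0485) and limma called 0 members. The luminal and basal age responses of Svs4 were 2.44 and 2.36 on the log2 scale, and their difference was 0.08 ± 1.31 (SE, edgeR adjusted p = 1). The age response of Svs1 was thus called in luminal and not in basal cells, but the difference, 4.23 ± 2.03 (SE, edgeR adjusted p = 0.429), was not called. That difference was 0.32 without luminal replicate 2 at 24 months and 5.64 without basal replicate 2.

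Other genes of the glands and of the neighbourhood gave the background to these values, as counts of genes called by edgeR. Over all tested genes, 19% were called higher in luminal cells at 3 months and 15.7% at 24 months. In either direction 5341 and 5028 of 14201 genes were called. Of 9 tested genes in a list of other seminal vesicle secretory genes, 8 were called higher in luminal cells at 3 months and 6 at 24 months, and 0 with age in luminal cells. Of 17 tested prostate secretory genes, 15 and 14 were called higher in luminal cells at 3 and 24 months, and 0 with age in luminal cells. Yet the summed TPM of the prostate list was lower in old luminal libraries (33602.5 to 52861.9) than in young ones (160197 to 178983). Within it, Sbp lay at 11570 to 20510 TPM in old and 115900 to 132000 TPM in young libraries. Its log2 difference was -2.94 ± 0.71 (SE, edgeR adjusted p = 0.0542). Spink3 was also lower (-1.71 ± 0.64), while Ren1 (1.41 ± 0.73) and Mmp7 (0.96 ± 0.65) were higher. The median log2 change with age in luminal cells was -0.01 for the other seminal vesicle list and -0.14 for the prostate list. It was 4.68 for the 8 members, or 1.34 without luminal replicate 2 at 24 months, and -0.02 for all tested genes. Of 16 tested genes flanking the Svs cluster on chromosome 2, the luminal cells had 6 called higher and 1 called lower at 3 months, and 5 and 2 at 24 months. Wfdc2, a whey acidic protein family gene beside the cluster, was the only flanking gene called with age in luminal cells (log2 fold change 2.76 ± 0.35, edgeR adjusted p = 0.00102). It lay at 455, 549.9 and 281.9 TPM at 24 months and at 45.3, 73.7 and 63.5 TPM at 3 months, with no single library standing apart.

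Of 4 tested genes of the Ceacam family other than Ceacam10, Ceacam1 and Ceacam2 were called higher in luminal cells at both ages. Ceacam2 was at 18.49 to 20.19 TPM in luminal cells at 3 months and 31.02 to 41.24 TPM at 24 months, and no gene of that family other than Ceacam10 was called with age in luminal cells. Of 23 tested genes of the androgen receptor and its targets, 1 was called with age in luminal cells, Ndrg1 (log2 fold change 0.75 ± 0.15, edgeR adjusted p = 0.0245). Of 14 tested Wolffian duct and urogenital sinus factors, the luminal cells at 3 months had 5 called higher and 3 called lower. Over all tested genes, 19% were called higher there and 5341 of 14201 in either direction. None of the 14 factors was called with age in luminal cells.

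The genes whose log2 CPM followed the members most closely were ranked by Pearson r with the members' mean scaled level, as a description. Over the 6 luminal libraries, the 5 highest of 9812 genes were Gpatch8 (r = 0.99), Rsl24d1 (0.988), Abi1 (0.986), Isca1 (0.98) and Qsox1 (0.978). Their ranges were narrow beside the members' own: Gpatch8 lay between 36.45 and 43.7 CPM and Qsox1 between 306.3 and 598.3 CPM. Over all 12 libraries the 5 highest of 9864 genes were Rab3gap1 (r = 0.97), Spinkl (0.966), Krt8 (0.958), Rnpep (0.95) and Isca1 (0.949). Over 12 libraries these values share the difference between cell types, and over the luminal libraries they share the library that stood apart. Spinkl was the 1 gene of the 9 with a wide luminal range, from 1.745 to 759.2 CPM.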

How the data were processed

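Sorted basal and luminal prostate cells were profiled with a stranded mRNA kit and an Illumina sequencer, per the labels. Per the submitters' processing notes, bcl2fastq 2.17, Bowtie2 2.1.0 and RSEM 1.2.15 were used with mm10. The strand setting and sort gates are not stated in the labels or headers. The authors deposited RSEM expected counts (estimated counts per gene) and TPM for 24054 genes, per the file headers.

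Expected counts were rounded. edgeR 4.0.16 in R 4.3.3 (filterByExpr, minimum count 10 and minimum total 15, TMM factors, quasi-likelihood test) was fitted over all 12 libraries with a mean per group, and p-values were adjusted by Benjamini-Hochberg over 14201 genes. Nothing says how replicates were obtained beyond their being pools of 2 mice, so p-values measure the spread between pools. Reads per distinct fragment were estimated per library from genes seen in few libraries; 3 fragments over a group set the limit for a fold, which covers counting error only. DESeq2 1.42.0, limma 3.58.1 (pseudocount 1 on TPM), other scalings, filters and left-out libraries were alternatives. Promoters were taken from RefSeq tables (GRCm38.p6), matched for all 8 members. The fit was tested on simulated data, where 100 of 100 genes changed by 3 log2 units were called, with 10 unchanged genes. The simulated spread was lower than that of these data, so genes as uneven as the members were not covered. Named genes were the 8 members, at most 4 called members of a list by smallest p, and the 5 genes most like the members; others named or plotted, such as Hoxb13 and Sva, were chosen after their values were seen. The members and lists were chosen with earlier results of these data known.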

Additional observations from a re-analysis of the deposited data

How the results depend on the processing

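All 8 members were called in luminal against basal cells at 24 months under every alternative that gave them a p; DESeq2 gave none for Svs3a and Svs6. At 3 months 6 to 8 were called when 1 library was left out, and 3 with fragment-equivalent counts. For age in luminal cells, where 2 members were called, leaving out 1 library gave 0 to 4. No filter gave 5, with 324 of 16878 tested genes called, and fragment-equivalent counts gave 6, with 550 of 11201. Limma gave 1, with 263 of 14201, and only the luminal groups gave 1, with 288 of 12895. The main fit called 235 of 14201 genes. Leaving out both old libraries numbered 2, chosen after seeing the data, gave 0 members. The replicate number as a block shared by all groups also gave 0. Libraries of the same number deviated with correlations of -0.03 to 0.03, and libraries of different numbers with -0.032 to 0.046. These values cannot tell whether libraries of the same number came from the same mice. The block changed no other count of called members. For age in basal cells the count was 0 to 1 when 1 library was left out, and the difference between both responses also gave 0 to 1, with 1 under DESeq2. The cause of these changes was not tested.

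Of the single values, age in luminal cells turned sign for Svs5, to -0.16 without luminal old replicate 2 and -0.17 without both libraries numbered 2. In the difference of the age responses, leaving out both gave -0.05 for Svs2, -0.13 for Svs4, -0.15 for Svs5 and -2.35 for Svs6; the number block gave -0.35 for Svs3b, -0.26 for Svs4 and -1.03 for Svs6, the block of age and number -0.41 for Svs6, and fragment-equivalent counts -0.05 for Svs3b. Over the fits that left out 1 library, the log2 values that changed sign ran from -0.16 to 0.46 for Svs5 in luminal cells, and in basal cells from -0.5 to 0.22 for Svs5 and -0.01 to 1.19 for Ceacam10. In the difference they ran from -0.87 to 5.93 for Svs3a, -2.02 to 4.32 for Svs3b, -1.68 to 1.81 for Svs4, -0.05 to 0.73 for Svs5 and -2.89 to 1.51 for Svs6.

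The summed share moved with the unit: as reads it was 0.158% and 0.125% in young and old basal cells and 15.6% and 16.6% in luminal cells. Without the largest member it was 0.158%, 0.138%, 11.7% and 14.1% of TPM. Leaving out 1 library gave 0.301 to 0.349%, 0.212 to 0.35%, 22.3 to 24.2% and 23.5 to 31.2%. Svs2 and Svs5 made up 98.5% of the members' reads in young basal and 98.8% in young luminal cells.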
